A study of Mus musculus with 4 samples.

Results

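The sodium pump and a partner of epithelial potassium channels were followed through 7 genes in mouse mammary tumour cells: the pump β subunit genes Atp1b1, Atp1b2 and Atp1b3, the pump regulators Fxyd3 and Fxyd5, the potassium channel β subunit gene Kcne3 and the channel gene Kcnq1. They were taken by the gene name that the array gives to each probe, which found 8 probes (2 for Kcne3 and 1 for each other gene) of 39429. They are 7 of 27518 genes with a name on the array, and a gene's brightest probe gives its value. The genes were chosen with the difference between these same samples known, so their values are a description and no test of them is given. An Agilent array of 60-base probes, read in the Cy3 channel alone, measured total RNA in 4 samples of cells from MMTV-Neu tumours, where the promoter of a mammary tumour virus drives the oncogene Neu (Her2) in mammary epithelium. Of these, 2 were labelled Pak1−/− and 2 Pak1+/+, from 2 tumours per group by the series design, although the methods call them cell lines. All cells had been grown in low-calcium medium with horse serum, deprived of serum for 3 h and then given EGF for 15 min, so that neither group shows the state without EGF.

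The sodium pump (Na+/K+-ATPase) moves sodium out of the cell and potassium into it at the cost of ATP. Its α subunit carries the catalytic and ion-binding sites, its β subunit brings the enzyme to the plasma membrane, and small FXYD proteins bind to the assembled pump and tune its ion affinities. In secretory epithelia such as the mammary gland the pump builds the sodium gradient on which salt and water transport rest, and potassium channels recycle the potassium that it brings in. KCNE3 is a single-span membrane protein that can hold the KCNQ1 channel open, and the pair is known for its part in chloride secretion.

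The arrays were alike in brightness: the median spot intensity was 322 to 331 over a median local background of 39.0 to 42.0, and 62.2% to 70.4% of probes were well above background. The array's Pak1 probe was not lower in the samples labelled Pak1−/− (12.21 and 12.25 log2 against 12.04 and 12.04, difference 0.19, SE 0.07, adjusted p = 0.07) and passed as higher under cyclic loess (0.27, adjusted p = 0.0265), so every direction below is that of the labels. The epithelial markers Epcam, Cdh1, Krt8 and Krt18 were well above background on all 4 arrays and Krt19 on 3. Of these 5 luminal markers, 3 were higher in Pak1−/−, where 24% of all genes were higher and 27.8% lower in limma by their brightest probe (Cdh1 by 1.19 log2, Krt8 by 0.57 and Krt18 by 0.27, adjusted p = 0.00116, 0.00292 and 0.0267) and Epcam and Krt19 did not pass (Epcam passed as lower with processed or normexp signals at the 75th percentile or the filter on all 4 arrays, adjusted p = 0.0482, 0.0372 and 0.0474), at a summed linear intensity of 932300 to 946400 against 719400 to 722500. With the processed signal scaled to its 75th percentile the calls of Krt8 and Krt18 were lost (adjusted p = 0.0603 and 0.72), and that of Krt18 also with normexp signals at the 75th percentile (0.689) and without any 1 array (0.0786 and 0.059 without Pak1−/− replicate 1 or 2, 0.104 and 0.138 without Pak1+/+ replicate 1 or 2). Krt19 was lower without Pak1+/+ replicate 2 (adjusted p = 0.00409). All 4 basal or myoepithelial markers were higher in Pak1−/−, at a summed linear intensity of 73870 to 77150 against 18270 to 18840 (Krt14 alone by 2.83 log2, adjusted p = 7.5e-05), although Krt5's call was lost without Pak1−/− replicate 1 (adjusted p = 0.115) or Pak1+/+ replicate 1 (adjusted p = 0.1) or with the processed signal (0.0581), and that of Trp63 without Pak1−/− replicate 1 (adjusted p = 0.0772) or Pak1+/+ replicate 2 (adjusted p = 0.0886). Among fibroblast markers no array had Dcn or Pdgfrb well above background, Col1a1 was higher by 1.12 log2 (adjusted p = 0.00507), Pdgfra and Col1a2 did not pass (−0.16 and 0.025, adjusted p = 0.2 and 0.821), and the summed intensity of the 5 genes was 1093 to 1283 against 900.3 to 943.1. The leukocyte list summed to 50270 to 72710 against 41210 to 46330, nearly all of it from Itgam, which did not pass (0.49, adjusted p = 0.11, and 0.77 without Pak1−/− replicate 2). Ptprc was lower (7.15 and 7.14 log2 against 7.59 and 7.60, adjusted p = 0.00556), and Cd79a was well above background on 1 array. Cd3e and Cd68 did not pass (0.25 and −0.20, adjusted p = 0.0854 and 0.212), although Cd3e passed as higher under cyclic loess (0.33, adjusted p = 0.0346). The endothelial list summed to 9840 to 10220 against 8909 to 10720, and both adipocyte markers lay near background (summed 177 to 205.7 over the 4 arrays). The part of these markers in the results below was not tested, and fewer cells of a type and less RNA per cell cannot be told apart in such bulk samples.

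Probe sequences are shown for Kcne3 and Fxyd3, the members with the largest differences among the 2 channel genes and among the 5 pump genes. Of the Kcne3 probes, the one shown has the slightly smaller difference (A_55_P2108708, mm9 chromosome 7, 107332867 to 107332926, plus strand). The Fxyd3 sequence is that of its only probe (A_66_P118124, chromosome 7, 31857207 to 31858634, minus strand), whose 60 bases are spread over a longer genomic stretch, as for a probe across a splice junction. Both are the probes' own letters from the scanner files, 5′ to 3′, with no part singled out.
Kcne3 probe: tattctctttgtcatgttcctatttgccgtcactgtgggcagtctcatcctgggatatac
Fxyd3 probe: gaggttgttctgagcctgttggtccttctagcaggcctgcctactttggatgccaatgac

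The members that were measured were all lower in the arrays labelled Pak1−/−, from Atp1b3 with the smallest difference to Kcne3 with the largest of the 5. Of the 7 genes, 5 were well above background on all 4 arrays, and Atp1b2 and Kcnq1 on none. The groups did not overlap for any of these 5 genes. Since 78.2% of the 27215 probes kept had groups that did not overlap (43.5% with the Pak1−/− arrays lower), and the genes were chosen on this contrast, nothing is read from that count. The median difference of the 5 genes was −1.30 log2, beside −0.052 over all probes kept.

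**Figure D1:**
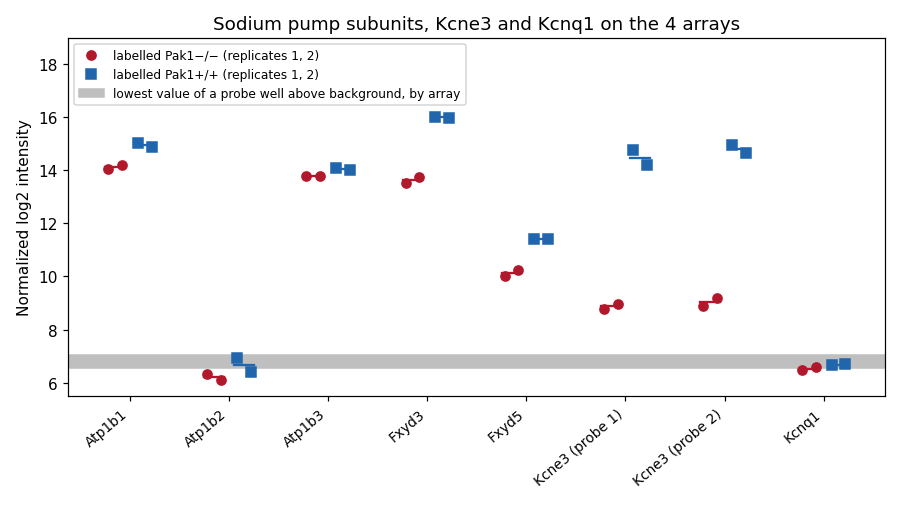
Normalized log2 intensity (vertical axis) of the 8 probes of the 7 genes (horizontal axis) on each array, with red circles for the 2 arrays labelled Pak1−/−, blue squares for the 2 labelled Pak1+/+, short lines for group means, and a grey band from the lowest to the highest, over the 4 arrays, of the dimmest value that was well above background. Both Kcne3 probes lie above 14 in the Pak1+/+ arrays and below 9.2 in the Pak1−/− arrays, Fxyd3 has group means of 16.00 and 13.65, and Atp1b2 and Kcnq1 lie at the band or below it.

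Kcne3 was the gene with the widest gap. Its brighter probe (A_51_P336599, chromosome 7, 107333062 to 107333121) read 8.89 and 9.19 log2 in the arrays labelled Pak1−/− and 14.97 and 14.64 in those labelled Pak1+/+. The groups lay far apart, and the Pak1+/+ arrays differed from each other by 0.33 log2, about as much as the Pak1−/− arrays did (0.31). The difference was −5.76 log2 (SE 0.16), which is 54.3-fold and leaves 1.84% of the normalized intensity. The other probe, whose sequence is given above and which lies 135 bases away, read 8.79 and 8.97 against 14.76 and 14.22, a difference of −5.61 log2 (SE 0.20) or 48.8-fold. Both probes thus gave nearly the same difference, and the remaining signal in the Pak1−/− arrays was still well above background. Of the 27215 probes kept, 10 had a decrease at least as large as that of the brighter Kcne3 probe, itself included.

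Fxyd3, which modulates the pump and was first found in mammary tumours, read 13.53 and 13.76 log2 in the arrays labelled Pak1−/− and 16.03 and 15.98 in those labelled Pak1+/+. Both Pak1−/− arrays were below both others, with a difference of −2.36 log2 (SE 0.10), or 5.13-fold. Fxyd5, also called dysadherin, which binds the pump and is known for weakening cell adhesion, was also lower in the arrays labelled Pak1−/− (A_51_P381260, chromosome 7, 31817824 to 31817883). It read 10.02 and 10.23 against 11.43 and 11.42, a difference of −1.30 log2 (SE 0.10) or 2.46-fold, with the groups apart. A decrease as large was found in 0.775% of the probes kept for Fxyd3 and in 3.26% for Fxyd5.

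The β subunit genes differed less. Atp1b1, the main β subunit of epithelia, read 14.05 and 14.22 log2 against 15.03 and 14.87 (A_51_P151484, chromosome 1, 166368263 to 166368322), a difference of −0.81 log2 (SE 0.10) that left 56.9% of the intensity. A decrease as large was found in 8.84% of the probes kept. Atp1b3, a widely expressed β subunit, read 13.79 and 13.78 against 14.08 and 14.01 (A_51_P520384, chromosome 9, 96233316 to 96233375). That is a difference of −0.26 log2 (SE 0.07) which 32.1% of all probes kept matched or passed, and it was −0.16 log2 after cyclic loess normalization, so its size depends on the scaling. Atp1b2, the β subunit of glia (A_55_P1968649, chromosome 11, 69413253 to 69413312), read 6.33 and 6.09 against 6.94 and 6.40 and was not well above background on any array, so no fold is given.

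Kcnq1, the pore-forming channel that KCNE3 is best known to join, was not well above background on any of the 4 arrays. Its probe (A_55_P2086203, chromosome 7, 150612887 to 150612946) read 6.47 and 6.57 log2 against 6.65 and 6.71, and the dimmest probe well above background read 6.55 to 7.03 on the same arrays. The probe therefore gives no level for either group. Kcne3 was in this way bright in the Pak1+/+ arrays while the gene of its best-known partner was not measured above background there.

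Further KCNE and KCNQ genes were examined as a list of 7, with the imprinted antisense transcript Kcnq1ot1 among them. Of these 2 were kept and none passed an adjusted p of 0.05 in limma (0 at an unadjusted p under 0.05), where 27.8% of all genes passed as lower and 24% as higher by their brightest probe. Kcnq1ot1, which is read from the strand opposite to Kcnq1, was at 10.96 and 10.32 against 10.95 and 10.46 (difference −0.066, SE 0.27, adjusted p = 0.858). Kcne1l, another KCNE subunit gene, was at 8.57 and 8.58 against 8.49 and 8.52 (difference 0.073, adjusted p = 0.409). No array had Kcne1, Kcne2, Kcnq3 or Kcnq5 well above background. Kcne4 was so only on the first array labelled Pak1−/− (7.66 log2, against 6.31 to 6.42 on the others).

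Further genes of the pump were read as a list of 14: the α subunit gene Atp1a4, the other β and FXYD genes, the NKAIN genes, whose products bind the pump, and the related proton pumps. Of these 8 were kept, and in limma 2 were lower, 2 higher and 4 not past the threshold (25% lower and 25% higher, beside 27.8% and 24% of all genes). Their median difference was 0.069 log2.

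The lower genes were Atp1a4 and Atp12a. Atp1a4, the α subunit of sperm, was at 7.75 and 7.89 log2 in the Pak1+/+ arrays and at 6.21 and 6.42, not well above background, in the others (at least 2.29-fold lower, adjusted p = 0.000773), and an overlapping probe was lower as well (at least 1.97-fold). It was kept through the Pak1+/+ arrays alone, where it is high, so that its count as lower gives no support of its own. Atp12a, a proton pump that pairs with Atp1b1 in some epithelia, was at 7.46 and 7.47 log2 against 8.75 and 8.81, a difference of −1.32 (SE 0.07, adjusted p = 0.000366).

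The FXYD genes went both ways. Fxyd6, a regulator known mainly from brain and inner ear, read 16.46 and 15.48 log2 in the arrays labelled Pak1−/− and 10.82 and 11.33 in those labelled Pak1+/+. It was higher by 4.90 log2 (SE 0.37, adjusted p = 0.000911), with a difference of 0.99 between the Pak1−/− arrays. Fxyd2, the γ subunit of kidney, was higher by 0.38 (SE 0.07, adjusted p = 0.00919), a call that was lost without Pak1+/+ replicate 1 or 2 (adjusted p = 0.0528 and 0.0565) and that its other probe did not pass (adjusted p = 0.343). Fxyd1 did not pass (10.24 and 10.42 against 9.94 and 10.44, adjusted p = 0.561), and no array had Fxyd4 or Fxyd7 well above background. Within 1 gene family the values of Fxyd3 and Fxyd5 were thus lower in the arrays labelled Pak1−/− and those of Fxyd6 higher.

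**Figure D2:**
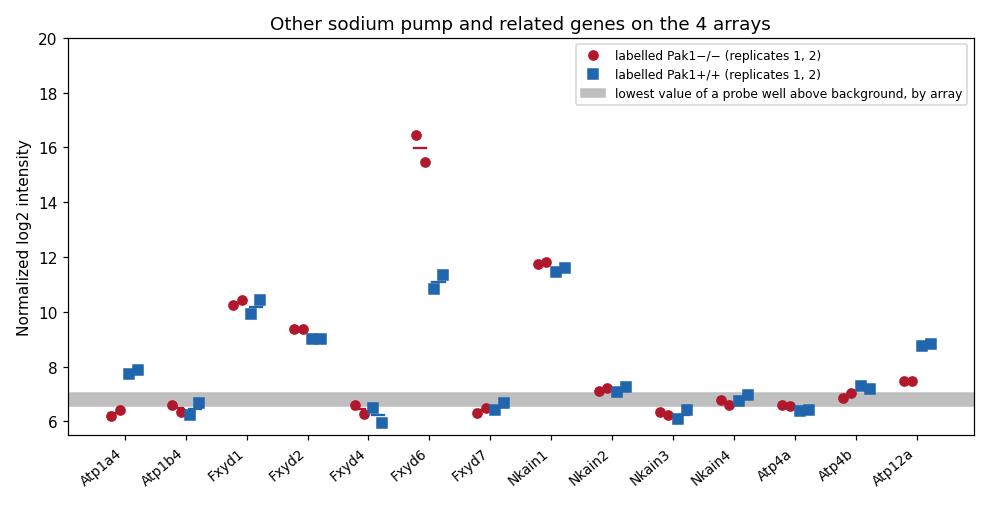
Normalized log2 intensity (vertical axis) of 14 other sodium pump and related genes (horizontal axis, brightest probe of each) on each array, with red circles for the arrays labelled Pak1−/−, blue squares for those labelled Pak1+/+, short lines for group means and a grey band for the dimmest values well above background over the 4 arrays. Fxyd6 has the widest gap, with the Pak1−/− arrays above 15 and the Pak1+/+ arrays near 11, and Atp12a and Atp1a4 are lower in the Pak1−/− arrays.

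Transport genes that work beside the pump in epithelia were examined as a list of 32. Of these 29 were kept, 15 of them lower in the arrays labelled Pak1−/− (51.7%), 5 higher (17.2%) and 9 not past the threshold in limma, beside 27.8% lower and 24% higher among all genes. The median difference was −0.32 log2. The list was written with earlier results of these data known, so the share is a description.

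Among the water and chloride genes, Aqp5, the water channel of secretory glands, was at 14.92 and 15.20 log2 against 17.78 and 17.69. It fell by 2.68 (SE 0.12, adjusted p = 0.000242), and its second probe fell by 3.06. The probes that the array names Clca2 and Clca1, whose accessions belong to Clca3a2 and Clca3a1 and whose genes are close copies of each other, had differences of −2.01 and −1.84 (adjusted p = 0.000329 and 0.000344). Further decreases were those of the chloride channel Clcn2, the chloride importer Slc12a2 and the bicarbonate transporter Slc4a4, with differences of −0.98, −0.87 and −0.92. Ano1 and Cftr, both chloride channels, did not pass the threshold (0.22 and 0.30, and 0.53 for Cftr without Pak1+/+ replicate 1). Ano1 passed as higher in the deposited table and with the filter on all 4 arrays (adjusted p = 0.0385 and 0.0438). Clcn3 did not pass either (−0.20, adjusted p = 0.0651), although it passed as lower with processed or normexp signals at the 75th percentile (0.0451 and 0.0377).

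Among the potassium channels, Kcnk5 read 8.24 and 9.15 log2 against 11.26 and 11.17, a difference of −2.53 (SE 0.31, adjusted p = 0.00314). Kcnn4, a calcium-gated channel of secretory cells, was at 14.34 and 14.83 against 16.37 and 16.29, a difference of −1.75 (SE 0.18, adjusted p = 0.00189). Kcnj15 went the other way and was higher by 1.12 (SE 0.11, adjusted p = 0.00162).

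Among the sodium and salt transport genes, Scnn1a, the α subunit of the epithelial sodium channel, was at 10.41 and 10.30 against 11.91 and 12.10, a difference of −1.65 (SE 0.10, adjusted p = 0.000481). The potassium chloride exporter Slc12a7 and the ligase Nedd4l, which removes the epithelial sodium channel, were higher by 0.97 and 0.78 (adjusted p = 0.00101 and 0.00133). Wnk4, a kinase that governs salt cotransporters, was lower (difference −1.09, SE 0.14, adjusted p = 0.00357). Scnn1b was well above background only in the Pak1−/− arrays, by at least 1.25-fold (adjusted p = 0.00636), and was kept through those arrays alone. Oxsr1, a kinase that the WNK kinases switch on, was also lower (−0.85).

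Of the calls of this list, 5 were less firm: Kcnk1, Wnk1, Aqp3 and Atp2c2 were lower (−0.32, −0.34, −0.44 and −0.91) and Atp2b1 was higher (0.33). A separate Wnk1 probe did not pass (difference −0.048, adjusted p = 0.751, groups overlapping). The calls of Kcnk1, Wnk1 and Atp2b1 were lost without Pak1+/+ replicate 1 (adjusted p = 0.165, 0.149 and 0.059), without Pak1+/+ replicate 2 (0.0757, 0.0625 and 0.11) and without Pak1−/− replicate 1 (0.124, 0.0517 and 0.0688), and those of Wnk1 and Atp2b1 also without Pak1−/− replicate 2 (0.114 and 0.0532). The call of Aqp3 did not survive without Pak1−/− replicate 1 (adjusted p = 0.0569) or without Pak1+/+ replicate 1 or 2 (0.0899 and 0.0651), and Atp2c2 without Pak1−/− replicate 1 or Pak1+/+ replicate 1 (0.114 and 0.113). Other processing also ended calls: that of Kcnk1 with offset 0, cyclic loess or no filter (adjusted p = 0.051, 0.0975 and 0.0662), that of Wnk1 with cyclic loess or no filter (0.0987 and 0.0596), that of Atp2c2 with offset 0, the processed signal or no filter (0.0528, 0.0518 and 0.0641) and that of Atp2b1 with the processed signal (0.0556).

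**Figure D3:**
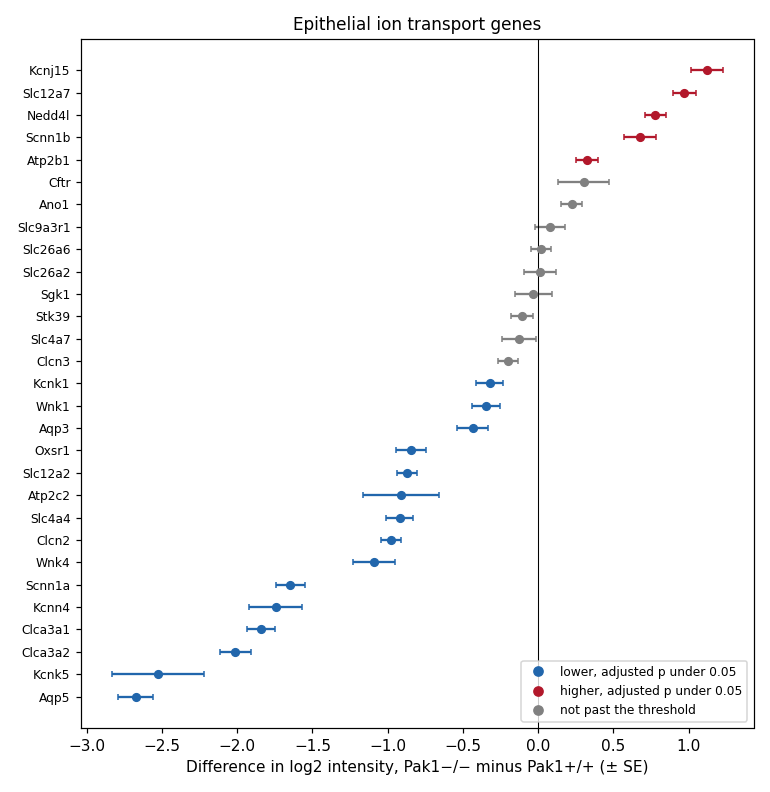
Difference in log2 intensity (horizontal axis, Pak1−/− minus Pak1+/+, with the standard error from limma) for the 29 epithelial ion transport genes kept (vertical axis), in blue where lower, red where higher and grey where not past the threshold, with 2 arrays per group. The lower genes reach −2.68 at Aqp5 and the higher ones 1.12 at Kcnj15.

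Of the 7 genes, 4 lie on chromosome 7, as does Pak1. The Kcne3 probes lie 2273 kb from the Pak1 probe on the mm9 build, so the genes around Pak1 were examined by position alone. Within 3 Mb on either side, 67 other genes were kept, of which 19 (28.4%) were lower and 13 (19.4%) higher in limma, beside 27.8% and 24% of all genes. One of the higher genes, Mogat2, was kept through the Pak1−/− arrays alone. With the filter on all 4 arrays, which leaves out Mogat2, 22 were lower and 12 higher, as with the processed signal. Under cyclic loess 16 were lower and 15 higher, and from the deposited log2 values 16 lower and 14 higher. Of all probes called, 41.8% were higher with the filter on all 4 arrays, 52.4% under cyclic loess and 44.9% in the main fit. The size of the excess of lower genes in the window thus depended on the processing. The median difference of the 67 genes was −0.11 log2. Those past the threshold and at least 2-fold were Thrsp, a regulator of fat synthesis (−3.82 log2), the unannotated LOC100044878 (−1.73) and Arrb1, an arrestin (−1.05), and, on the higher side, the collagen chaperone Serpinh1 (1.72), the transcript A430054B03 (1.55, well above background in only 1 of the 2 Pak1+/+ arrays), Lrrc32, which holds latent TGF-β on the cell surface (1.49), Plekhb1 (1.47) and Tenm4 (1.22). Slco2b1, well above background only in the Pak1+/+ arrays, did not pass (at least 2.30-fold lower, adjusted p = 0.105). No other gene there had a measured difference as large as that of Kcne3, although Kctd14 was saturated on all 4 arrays and has none.

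**Figure D4:**
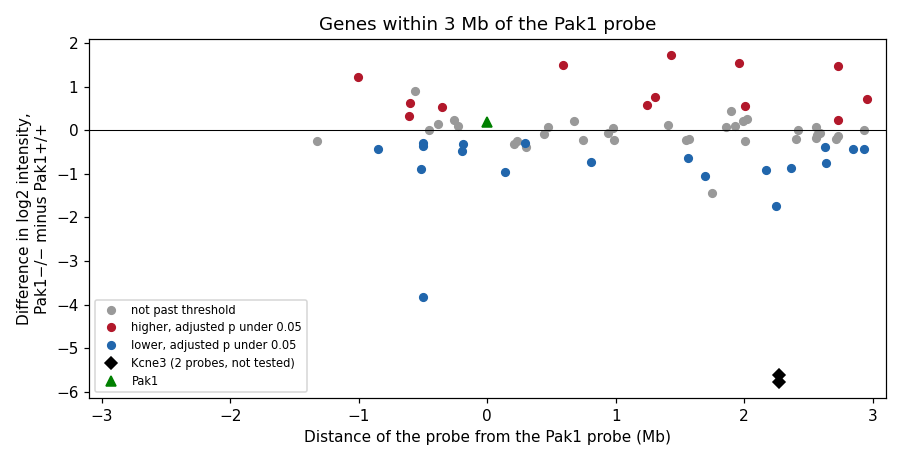
Difference in log2 intensity (vertical axis, Pak1−/− minus Pak1+/+) against the distance of each gene's probe from the Pak1 probe in Mb (horizontal axis), for the 67 genes kept within 3 Mb, coloured by call, with Kcne3 as black diamonds and Pak1 as a green triangle. Higher and lower genes are mixed along the window, and Kcne3 stands alone below −5.

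The nearest measured genes of each member were also read. Beside Kcne3, LOC100044878, whose probe lies at −23.2 kb, was lower (10.00 and 10.50 log2 against 12.15 and 11.80, difference −1.73, adjusted p = 0.00326), and so was Pgm2l1 on the other side (difference −0.86, adjusted p = 0.00308). Beside Fxyd3, Lgi4 did not pass the threshold (−0.063, adjusted p = 0.499), while Hpn, the membrane protease hepsin, whose probe lies 25.9 kb away, was higher by 6.58 log2 (13.67 and 13.49 against 6.90 and 7.10, adjusted p = 4.1e-05), although it was well above background in only 1 of the 2 Pak1+/+ arrays, so that the size is uncertain. Fxyd3 and Hpn thus lie side by side with differences of opposite sign. Beside Fxyd5, whose probe is 40.1 kb from that of Fxyd3, Fxyd1 did not pass and Fam187b was lower (difference −0.99, adjusted p = 0.000961). Neither neighbour of Atp1b1 (Nme7 and Gm2580) passed the threshold. Of those of Atp1b3, Tfdp2 did not pass and LOC100044864 was lower (difference −0.34, adjusted p = 0.0336). Sat2 was lower beside Atp1b2 (difference −0.72, adjusted p = 0.00376) and Trp53 did not pass (−0.034). Beside Kcnq1, Slc22a18 was lower (difference −0.29, adjusted p = 0.0278). The call of LOC100044864 was lost without Pak1−/− replicate 1 or 2 or Pak1+/+ replicate 2 (adjusted p = 0.101, 0.114 and 0.152), and that of Slc22a18 without Pak1−/− replicate 1 or Pak1+/+ replicate 1 or 2 (0.0833, 0.112 and 0.123). The former was also lost with the 75th percentile of normexp signals or no filter (0.0565 and 0.0588) and the latter with cyclic loess (0.0639), under which Tfdp2 passed as higher (0.0349).

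The genes whose pattern over the 4 arrays was most like that of Kcne3 were sought among 16784 others that were well above background on all arrays, by the Euclidean distance between mean-centred log2 values. The nearest were Flvcr2 (distance 0.31), Sema3b (0.38), Klk14 (0.603), Fetub (0.644) and Cd177 (0.662). Fetub, a protease inhibitor, read 8.83 and 9.05 against 14.27 and 13.86. Cd177, a surface glycoprotein, read 9.05 and 9.02 against 14.22 and 14.24. With 4 arrays in 2 groups, such a distance is set mainly by the size of the difference between the groups.

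Promoter letters are shown for Kcne3, Fxyd3 and Atp1b1 as the members with the widest gap in the channel, FXYD and β subunit roles. The RefSeq promoter table used here (GRCm38.p6) matched 5 of the 7 genes by symbol, with 7 start sites in all. Each sequence is the 250 bases before a start site, 5′ to 3′ on the strand of the gene. Capitals mark 3 motifs searched on both strands, any overlap counted: the GC box GGGCGG, the CCAAT box CCAAT and the loose AP-1 pattern TGANTCA. They were found in 32.7%, 33.8% and 6.75% of the 32851 promoters of that length. The last takes any middle base, where the AP-1 site itself has C or G.
Kcne3 first start (chr7:100176420-100176669, plus strand): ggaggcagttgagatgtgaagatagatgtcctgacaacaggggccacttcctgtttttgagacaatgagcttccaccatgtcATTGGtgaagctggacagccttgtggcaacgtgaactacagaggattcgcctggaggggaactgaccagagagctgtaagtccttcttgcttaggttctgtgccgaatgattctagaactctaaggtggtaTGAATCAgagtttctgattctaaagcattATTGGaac
Kcne3 second start (chr7:100178433-100178682, plus strand): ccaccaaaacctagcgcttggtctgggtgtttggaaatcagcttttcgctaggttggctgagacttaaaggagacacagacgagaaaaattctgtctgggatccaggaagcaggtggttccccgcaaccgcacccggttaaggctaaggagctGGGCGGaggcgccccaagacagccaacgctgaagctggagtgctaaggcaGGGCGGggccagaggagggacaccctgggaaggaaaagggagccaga
Fxyd3 (chr7:31076698-31076947, minus strand): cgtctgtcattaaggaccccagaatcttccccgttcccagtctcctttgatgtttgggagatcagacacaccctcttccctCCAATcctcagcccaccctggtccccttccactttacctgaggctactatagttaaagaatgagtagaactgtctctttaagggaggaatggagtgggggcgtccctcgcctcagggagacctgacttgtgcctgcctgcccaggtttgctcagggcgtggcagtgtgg
Atp1b1 (chr1:164458356-164458605, minus strand): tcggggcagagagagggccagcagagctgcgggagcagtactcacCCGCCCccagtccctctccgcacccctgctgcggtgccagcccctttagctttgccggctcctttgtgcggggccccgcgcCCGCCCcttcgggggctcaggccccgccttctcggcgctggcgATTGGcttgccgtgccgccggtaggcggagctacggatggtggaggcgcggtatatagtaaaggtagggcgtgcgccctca

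The first Kcne3 start held 2 CCAAT boxes and 1 match to the loose AP-1 pattern, and the second 2 GC boxes. That match has A in the middle, so it is not the AP-1 site itself. Fxyd3 held 1 CCAAT box, and Atp1b1 held 2 GC boxes and 1 CCAAT box. None of the 3 motifs was found before the Fxyd5 start or the first Atp1b3 start, and the second Atp1b3 start held 5 GC boxes. No motif of the 3 was thus found before every start.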

How the data were processed

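The deposited scanner files give, per the file headers, each spot's linear intensity from Feature Extraction 9.5.3.1, not normalized between arrays (4 arrays, 1 slide, 1 scan). The authors also deposited log2 values of the same arrays, normexp corrected and quantile normalized per their methods, for 24008 of 39485 rows. Atp1b2 and Kcnq1 have no value in them.

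Following those methods, spots were background corrected with normexp (limma 3.58.1, R 4.3.3, offset 50, set here) and the 43020 non-control spots quantile normalized on the log2 scale. Outlier-flagged spots were left out and spots of a probe averaged. No member probe was saturated. Probes well above background on at least 2 arrays were kept (27215, those with an outlier gap left out). Genotype was fitted with lmFit and eBayes (two-sided, Benjamini-Hochberg over all probes kept, threshold 0.05), checked on simulated data. The number of arrays limits the precision, and p-values measure only the spread between these samples, which may be technical. The offset understates changes of dim probes. "At least N-fold" sets the brighter group's mean against the dim probe's values, raised on each array to at least the dimmest value well above background. Levels of different probes are not comparable. Symbols came from accessions matched to RefSeq (26055 of 32334). A gene's brightest probe stands for it. Probe coordinates are mm9.

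The members and gene lists were chosen with earlier results of these data known. Some genes of the lists are not reported here and are not in their counts. Named genes were the members, Pak1, the cell type markers, list genes past the threshold or measured in 1 group only, genes within 3 Mb of Pak1 that passed and changed at least 2-fold, nearest neighbours, and the 5 genes most like Kcne3. Some genes that did not pass, such as Fxyd1, Kcnq1ot1, Kcne1l, Ano1, Cftr and Kctd14, were named beside them, and others like them were not. Alternatives were offset 0, 75th percentile scaling of processed or normexp signals, cyclic loess, other filters, the deposited table, the mean over probes, a replicate block and leaving out each array.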

Additional observations from a re-analysis of the deposited data

How the results depend on the processing

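No direction of a measured member changed under any alternative, and the 5 measured members stayed without overlap between groups. The members were chosen on this contrast, and 78.2% of all probes kept had groups that did not overlap. Groups already apart stay apart when an array is left out, and the filters and the replicate block use the same values. Nothing is therefore read from the lack of overlap. The difference of Kcne3 ran from −6.02 (processed signal at the 75th percentile) to −5.60 and that of Atp1b3 from −0.30 to −0.16 (cyclic loess). Without a filter, which adds the dim Atp1b2 and Kcnq1, the median of the members was −0.81 in place of −1.30. Of the other sodium pump genes, 1 was lower with the filter on all 4 arrays, which leaves out Atp1a4, and 1 was higher when a gene's probes were averaged, while 3 were lower with either 75th percentile scaling or the deposited table (Atp4b passed) and 3 were higher with cyclic loess (Nkain1 passed). Leave-one-out fits, in which a lone array is taken to vary like the other group, gave 1 to 2 higher and a member median of −1.41 to −1.19. By the labels, replicate numbers pair no samples (correlation of replicate differences −0.028 across probes). The replicate block gave 2 lower and 2 higher sodium pump genes, as without it, and a Kcne3 difference of −5.76, but among the genes named here the calls of Kcnk1, Krt18, LOC100044864 and Slc22a18 were lost with it (limma adjusted p = 0.0664, 0.0564, 0.0504 and 0.052) and Itgam passed as higher (0.0335). Of the probes called, the share higher in Pak1−/− went from 44.9% to 52.4% under cyclic loess. Signal over background leaves Atp1b2 and Kcnq1 without a level.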
